A study of Mus musculus with 6 samples.

Results

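Expression of 10 genes that make or degrade leukotrienes and prostaglandins was examined in mouse mammary tumor cells labeled RANK+/+ or RANK-/-. The genes were Pla2g4a, Alox5ap, Alox5, Lta4h, Ltc4s, Ptgs1, Ptgs2, Ptges, Hpgds and Hpgd, 10 of the 36799 genes or unnamed transcripts on the array. They were chosen from the same ratios that are given below, so their ratios are a description and no test is read from them. Their 12 gene probes were found by the RefSeq accession that the array files give.

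RANK, encoded by Tnfrsf11a, is the receptor activator of NF-kB. The cells came from MMTV-PyMT tumors, driven by the polyomavirus middle T oncogene under a promoter active mainly in mammary epithelium. Both groups carried this transgene, and the donor tumors were RANK+/+ or RANK-/- on the C57BL/6 background. Late carcinoma cells were placed in the mammary gland of syngeneic C57BL/6 females that kept their own RANK, 6 to 10 weeks old according to the methods of the study, and received no treatment named in the labels. The grown tumors were dissociated, and live cells without the leukocyte surface protein CD45 were sorted, a fraction that keeps stromal and endothelial cells beside tumor cells.

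Each two-color array compared 1 RNA of each genotype. There were 3 pairs of RNAs with 2 technical arrays each (A and B), 6 arrays in all, and the pair was the replicate (n = 3). Whether each RNA of a genotype was from its own tumor is not given in the labels, so the spread between pairs may be partly technical. RANK-/- RNA carried Cy5 in pair 1 and Cy3 in pairs 2 and 3, which means that pair 1 and its dye arrangement cannot be told apart. A level is a normalized log2 intensity, compared only within a probe. A ratio is the log2 of RANK-/- over RANK+/+, averaged over arrays A and B, so that -1 is a 2-fold lower signal in the channel labeled RANK-/-. Across the genes tested, Pearson's r between the ratios of pairs 1 and 2 was -0.28, against 0.18 for pairs 1 and 3 and -0.08 for pairs 2 and 3.

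The deleted gene went against the labels. Tnfrsf11a (NM_009399) was above background throughout, and its level was 13.55, 13.36 and 13.07 in the channels labeled RANK-/-, against 11.52, 12.21 and 11.32 in those labeled RANK+/+. Every pair thus showed more signal in the RANK-/- channel, with a mean ratio of 1.65 ± 0.45 (SD, n = 3). Without the probe's sequence it could not be judged whether the probe lies outside the deleted part of the gene. Directions below follow the labels, and every one of them would turn if the genotypes were exchanged.

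Eicosanoids are signaling lipids made from arachidonic acid, which phospholipase A2 releases from membranes. Of the lipoxygenases, 5-lipoxygenase starts its conversion into leukotrienes, which draw in and activate leukocytes. The cyclooxygenases turn it into the precursor of the prostaglandins, with prostaglandin E2 the best known of them in mammary tumors. The leukotriene arm is known mainly from myeloid and mast cells, and the prostaglandin arm from epithelial, stromal and immune cells alike.

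Of the 10 genes, 8 were detected, and for these 8 the probe used (the brightest) passed the background flag on all 6 arrays for either genotype. Alox5 and Hpgds were dim and did not pass the filter. Among the 8, Alox5ap was lower in every pair in the channel labeled RANK-/-, and Ptges slightly higher in every pair by its brighter probe alone (its dimmer probe differed in sign between pairs), while the other 6 differed in sign between pairs. Over all 22502 genes tested, 9.65% were lower in every pair and 9.95% were higher, which are the shares to read beside 1 of 8 in each direction. The median of the 8 mean ratios was 0.07, against 0.00 over all genes tested. No gene on the array passed limma at an adjusted p of 0.05 (0% of 22502), with 647 at an unadjusted p under 0.05. The rank product test, the kind used in the study, called 12 genes lower (0.0533%) and 10 genes higher (0.0444%), and none of the 8 was among them.

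**Figure D1:**
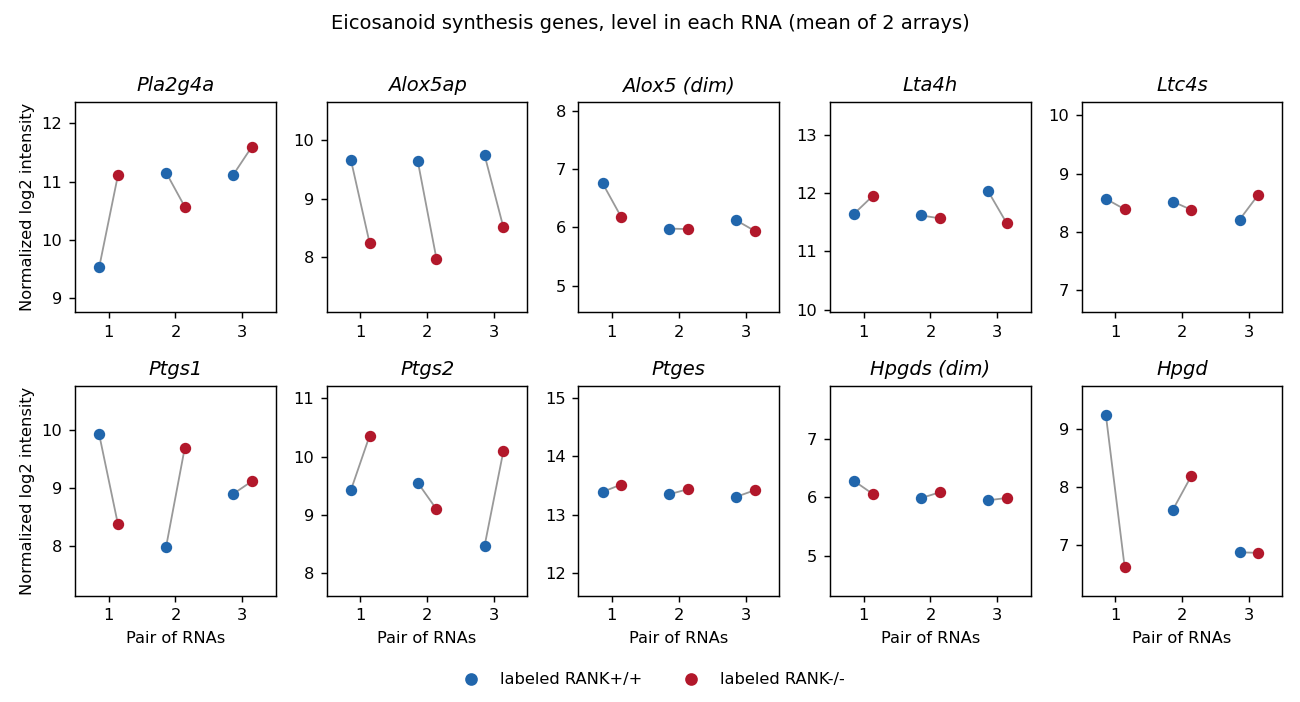
Normalized log2 intensity (vertical axis, each panel spanning the same number of log2 units) of the 10 genes in each RNA of the 3 pairs (horizontal axis). Blue points are the channels labeled RANK+/+ and red points those labeled RANK-/-, each the mean of 2 arrays, and a gray line joins the RNAs of a pair. Alox5ap is lower in the red point of all 3 pairs, and genes marked dim did not pass the background filter.

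Pla2g4a (NM_008869) encodes cytosolic phospholipase A2, the enzyme that frees arachidonic acid. Its level was 11.11, 10.57 and 11.59 in the channels labeled RANK-/- and 9.53, 11.15 and 11.11 in those labeled RANK+/+. The ranges overlapped, and the low value of 9.53 in the RANK+/+ RNA of pair 1 stood apart from the other 5. The ratios were 1.58, -0.59 and 0.48, a mean of 0.49 ± 1.08 (SD, n = 3). In pair 1 the signal was 2.98-fold higher in the channel labeled RANK-/-, and in pair 2 it was higher in that labeled RANK+/+. Without pair 1 the mean ratio was -0.05.

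Alox5ap (NM_009663) encodes the 5-lipoxygenase activating protein, a membrane protein that presents arachidonic acid to 5-lipoxygenase. Its level was 8.24, 7.97 and 8.51 in the channels labeled RANK-/- and 9.67, 9.65 and 9.75 in those labeled RANK+/+. The groups did not overlap, and the RANK+/+ levels lay close together (SD 0.05) while those labeled RANK-/- varied more (SD 0.27). Levels of the RANK-/- channels lay all below those of RANK+/+ for 3.82% of the genes tested. The signal was 2.69-fold, 3.20-fold and 2.35-fold higher in the channel labeled RANK+/+ in pairs 1, 2 and 3, a mean ratio of -1.45 ± 0.22 (SD, n = 3). All 6 arrays gave this direction, with ratios from -1.18 to -1.79, in both dye arrangements. These values come from a single probe, so agreement between probes could not be checked for this gene. Alox5ap was 1 of the 11 genes (0.0489%) at least 2-fold lower in every pair, and its mean ratio ranked 27th from the lowest of 22502. In bulk RNA of this kind, fewer cells that express a gene and less RNA per cell cannot be told apart.

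Alox5 (NM_009662) encodes 5-lipoxygenase itself, the enzyme that the activating protein serves. The background flag was passed by 0 of 6 channels labeled RANK-/- and by 2 of 6 labeled RANK+/+, both of pair 1. The level in pair 1 was 6.17 in the channel labeled RANK-/- and 6.76 in that labeled RANK+/+, while the other 4 levels lay between 5.93 and 6.12, not well above background. Set against the lowest signal called above background, the mean of the RNAs labeled RANK+/+ was 1.15-fold higher. All of these RNAs but that of pair 1 passed the flag on no array. The value was thus carried by pair 1 alone and is not a least fold for the group. Alox5ap was therefore measured on every array of an RNA set in which Alox5 was above background in 1 RNA of 6.

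Lta4h (NM_008517) encodes leukotriene A4 hydrolase, which makes leukotriene B4. Its levels were 11.95, 11.56 and 11.48 in the channels labeled RANK-/- and 11.64, 11.61 and 12.03 in those labeled RANK+/+. The groups overlapped, and the ratios of 0.31, -0.05 and -0.55 gave a mean of -0.10 ± 0.43 (SD, n = 3), smaller than the spread. Ltc4s (NM_008521) encodes leukotriene C4 synthase, which conjugates glutathione in the cysteinyl branch. Its levels were 8.39, 8.38 and 8.64 in the channels labeled RANK-/- and 8.57, 8.52 and 8.21 in those labeled RANK+/+. These groups overlapped too, with ratios of -0.18, -0.14 and 0.43 and a mean of 0.04 ± 0.34. Neither hydrolase nor synthase shared the one-sided ratios of Alox5ap, and both moved by less than 1 log2 unit in every pair.

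**Figure D2:**
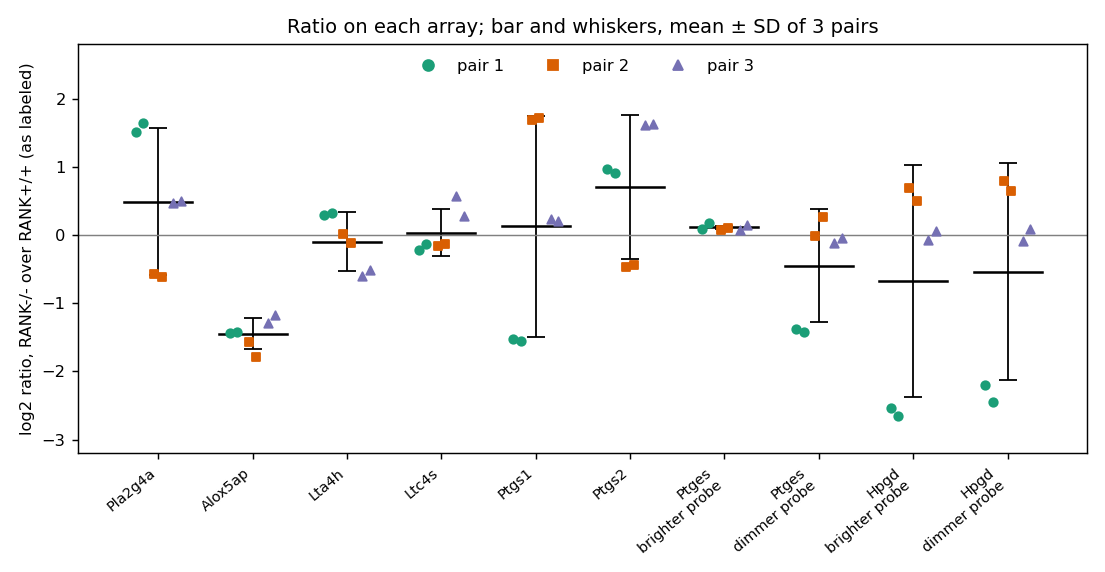
Log2 ratio of RANK-/- over RANK+/+ as labeled (vertical axis) on each of the 6 arrays for the 10 probes of the 8 detected genes. Symbols and colors mark the pair, side by side points of one symbol are arrays A and B, and the bar with whiskers is the mean ± SD over 3 pairs; Alox5ap lies below 0 on all 6 arrays, and Ptgs1, Ptgs2, Pla2g4a and Hpgd spread on both sides of 0.

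The cyclooxygenase genes varied widely between pairs. Ptgs1 (NM_008969), which encodes the cyclooxygenase present in many resting cells, had levels of 8.38, 9.69 and 9.11 in the channels labeled RANK-/- and 9.91, 7.99 and 8.89 in those labeled RANK+/+. Its ratios were -1.54, 1.70 and 0.22, a mean of 0.13 ± 1.62 (SD, n = 3). The signal was thus 2.90-fold higher in the channel labeled RANK+/+ in pair 1 and 3.25-fold higher in that labeled RANK-/- in pair 2. Arrays A and B of a pair differed by at most 0.04, so the difference between pairs was much larger than that between technical arrays. Only 1.23% of the genes tested had a larger SD over pairs.

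Ptgs2 (NM_011198) encodes the inducible cyclooxygenase, an early response gene. Its level was 10.36, 9.10 and 10.10 in the channels labeled RANK-/- and 9.43, 9.56 and 8.48 in those labeled RANK+/+. The ranges overlapped: the signal was 1.91-fold and 3.07-fold higher in the channel labeled RANK-/- in pairs 1 and 3, and 1.37-fold higher in that labeled RANK+/+ in pair 2. The mean ratio was 0.70 ± 1.06 (SD, n = 3), within the spread of the pairs. Ptgs2 and Pla2g4a had the same signs, higher in pairs 1 and 3 and lower in pair 2, and Ptgs1 had the opposite sign to both in pairs 1 and 2.

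The start regions of both cyclooxygenase genes are shown because these genes differed in sign within pairs 1 and 2. They are the RefSeq windows of build GRCm38.p6, from 250 bases before to 50 bases after the start site, on the coding strand. Capitals mark matches, on either strand, to the NF-kB motif (GGGA and TTCC parted by any 2 bases), TGANTCA (AP-1), ACGTCA (cyclic AMP response element, in part), CACGTG (E-box) or TATAAA.
Ptgs1 (chr2:36230176-36230475, plus strand): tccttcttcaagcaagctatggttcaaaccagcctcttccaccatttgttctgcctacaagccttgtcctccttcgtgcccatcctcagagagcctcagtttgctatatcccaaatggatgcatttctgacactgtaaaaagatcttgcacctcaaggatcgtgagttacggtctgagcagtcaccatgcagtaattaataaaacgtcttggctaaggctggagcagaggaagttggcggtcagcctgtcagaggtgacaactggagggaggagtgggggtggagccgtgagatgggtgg
Ptgs2 (chr1:150099781-150100080, plus strand): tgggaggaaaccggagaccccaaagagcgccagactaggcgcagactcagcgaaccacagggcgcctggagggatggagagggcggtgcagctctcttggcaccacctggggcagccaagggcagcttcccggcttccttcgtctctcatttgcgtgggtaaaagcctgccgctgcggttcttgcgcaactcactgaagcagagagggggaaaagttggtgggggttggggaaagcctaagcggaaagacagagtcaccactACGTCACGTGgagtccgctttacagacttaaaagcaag
The Ptgs2 window held ACGTCA at position 13 and CACGTG at position 17 after the start site, and these overlap by sharing the letters CA. The Ptgs1 window held none of the motifs. ACGTCA was found in 7.51% of all 32851 windows of this length and CACGTG in 7.15%. Windows were found for 9 of the 10 genes, all but Alox5ap. The NF-kB and AP-1 motifs, present in 1.47% and 7.81% of all windows, were in the windows of 0 of the 9. TATAAA, present in 13.6%, was found for Hpgd and Pla2g4a. Pla2g4a had more than a single window, and only that starting at chr1:149922390 held the match, while that starting at chr1:149961241 held none.

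Ptges (NM_022415) encodes the inducible prostaglandin E synthase, which acts after the cyclooxygenases. Its brighter probe had levels of 13.52, 13.44 and 13.42 in the channels labeled RANK-/- and 13.39, 13.35 and 13.31 in those labeled RANK+/+. The groups did not overlap, as for 3.68% of the genes tested whose RANK-/- levels lay all above, but the difference was small, with ratios of 0.13, 0.09 and 0.11 and a mean of 0.11 ± 0.02 (SD, n = 3). The mean turned to -0.20 with median centring in place of loess, to -0.03 with the processed signals, to -0.02 in the series table and to -0.17 as the mean over both probes. The dimmer probe gave ratios of -1.40, 0.13 and -0.08. Its level of 9.63 in the RANK+/+ RNA of pair 1 stood above the other 5, which lay between 8.21 and 8.35. The probes of Ptges thus disagreed in pair 1, and no direction is given for the gene.

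Hpgds (NM_019455) encodes the hematopoietic prostaglandin D synthase, known from mast cells and other leukocytes. The background flag was passed by 0 of 6 channels labeled RANK-/- and by 1 of 6 labeled RANK+/+, in pair 1. Its levels ranged from 5.95 to 6.28, and no fold was computed.

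Hpgd (NM_008278) encodes 15-hydroxyprostaglandin dehydrogenase, which inactivates prostaglandins. It had the widest spread of the 8 detected genes. The level of its brighter probe was 6.64, 8.19 and 6.87 in the channels labeled RANK-/- and 9.24, 7.61 and 6.88 in those labeled RANK+/+. The groups overlapped, with the highest level in the RANK+/+ RNA of pair 1. The ratios were -2.60, 0.59 and -0.01, a mean of -0.67 ± 1.70 (SD, n = 3), and the signal of pair 1 was 6.06-fold higher in the channel labeled RANK+/+. The dimmer probe gave -2.33, 0.71 and 0.00, so both probes showed the difference of pair 1, although the dimmer was not above background in the channel labeled RANK-/- of that pair. Without pair 1 the mean of the brighter probe was 0.29.

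The spread between pairs was uneven among the 8 detected genes, which were chosen from these same ratios. The median of their SDs was 0.74, against 0.33 over all genes tested. An SD over 1 was found for 4 of the 8 (Pla2g4a, Ptgs1, Ptgs2 and Hpgd). Ptgs2 had the smallest SD of these 4 (1.06), and 5.43% of the genes tested had a larger one. Alox5ap and Ptges were the only 2 of the 8 with an SD under the median of all genes. The median difference between arrays A and B was 0.07 over all genes.

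Other genes of the eicosanoid pathway were taken from a list of 62, of which 61 were on the array and 46 passed the filter. None passed limma (0 of 46), 7 had a ratio above 0 in every pair (15.2%, against 9.95% of all genes) and 4 a ratio below 0 in each (8.70%, against 9.65%). The median of their mean ratios was 0.06. None had one sign in every pair together with a mean ratio of 1 or more in size. The genes named for one sign below, as well as Alox12e and Mgst2, were chosen after their values were seen, whereas the gene of largest mean in each role was named by rule.

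Among the phospholipases and their regulators, 9 of 15 genes on the array passed the filter. Pla2g7, which inactivates platelet-activating factor, had the largest mean, with ratios of -0.41, 0.43 and -1.84. Its sign differed between pairs. Pla2g2e, a secreted phospholipase, was lower in every pair (-0.53, -0.56 and -0.07) by the probe that passed. A dimmer Pla2g2e probe, which did not pass the filter, gave -0.04, -0.23 and 0.04. Pla2g4f and Pla2g6, a cytosolic and a calcium-independent phospholipase, were higher in every pair, with ratios of 0.15, 0.09 and 0.89 and of 0.14, 0.13 and 0.58. Pair 3 carried both, and without it their mean ratios were 0.12 and 0.13.

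Among the other lipoxygenases and leukotriene enzymes, 14 of 17 passed the filter, 2 were lower in every pair and 0 were higher. Alox12, the platelet-type lipoxygenase, had ratios of -0.28, -0.35 and -1.65 by its brighter probe. A dimmer Alox12 probe gave -0.22, 0.03 and -0.67 and was not above background on any array in the channels labeled RANK-/-. Ggt1, a gamma-glutamyltransferase that trims leukotriene C4, had a mean ratio of -0.48, with -0.03 in pair 3. Both were thus on the same side as Alox5ap but with ratios near 0 in at least 1 pair or probe. The largest mean was that of Dpep1, the dipeptidase that converts leukotriene D4 to E4, with ratios of -0.34, 1.15 and 1.57. Alox12e had the widest range of the role, -2.03 in pair 1 against 1.60 in pair 2, and Mgst2, which can make leukotriene C4, had -1.93 in pair 1 against 0.21 and -0.11.

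Among the other prostanoid synthases and reductases, 11 of 12 passed the filter and 2 were higher in every pair. Ptgds, the lipocalin-type prostaglandin D synthase, had ratios of 1.03, 0.54 and 0.09, and Gstm2, a glutathione transferase, had the largest mean of the role with 0.05, 0.32 and 1.68. Another of the 3 Gstm2 probes gave -0.13 in pair 1. Glutathione transferases of this family are close in sequence, and the probes could not be assigned more narrowly. Of the 3 transporters, Slco2a1, which takes up prostaglandins, was higher in every pair, with ratios of 0.58, 0.46 and 1.06.

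Among the receptors, 9 of 14 passed the filter. Ltb4r1, the high-affinity receptor of leukotriene B4, had the largest mean, with ratios of -1.20, -1.01 and 0.08. It was thus lower in pairs 1 and 2 and near 0 in pair 3. Ptger4, a receptor of prostaglandin E2, was lower in every pair (-1.07, -0.20 and -0.49). Ptger2, another receptor of prostaglandin E2, had ratios of 0.01, 0.11 and 1.25, and Tbxa2r, the thromboxane receptor, 0.04, 0.09 and 0.45, so that both were higher in every pair but mainly in pair 3. Receptors of leukotriene and prostaglandin ligands thus lay on both sides of 0.

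**Figure D3:**
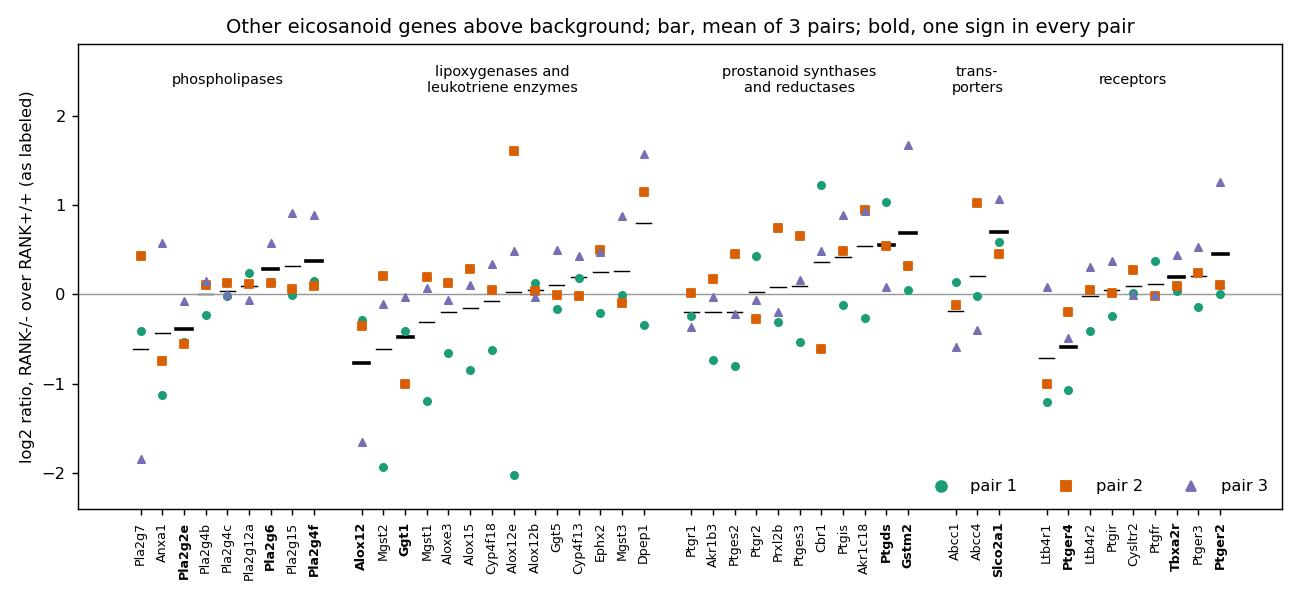
Log2 ratio of RANK-/- over RANK+/+ as labeled (vertical axis) for the 46 other eicosanoid genes that passed the filter, ordered by mean within each role. Symbols mark the 3 pairs and the bar is their mean; the 11 genes in bold have one sign in every pair, 7 higher and 4 lower.

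Because the leukotriene arm is known from leukocytes, markers of other cells were read in the same RNAs. Of 45 immune markers on the array, 27 passed the filter, and 19 of these 27 had their highest level in the RANK+/+ RNA of pair 1. The share of all genes tested with their highest level in that RNA was not computed, so this count is a description only. The median ratio of the 8 leukocyte markers that passed (of 9) was -0.86, 0.04 and 0.21 in pairs 1, 2 and 3, and that of the 8 macrophage markers (of 10) was -0.27, 0.25 and 0.16. By these medians, leukocyte and macrophage markers were lower in the channel labeled RANK-/- only in pair 1. Ptprc, which encodes CD45 itself, had ratios of -0.93, 0.10 and 0.14 and was above background on 5 of 6 arrays in the channels labeled RANK-/- and 4 of 6 in those labeled RANK+/+. The neutrophil genes S100a8 and S100a9 had ratios of -3.99 and -4.12 in pair 1, against 0.07 and -0.04 in pair 2 and -0.11 and -0.25 in pair 3. The other 2 neutrophil markers that passed lay on the other side of 0 in pair 1, Csf3r with 0.42 and Elane with 0.25. The Csf3r value of pair 1 rests on 1 array. Its levels varied little over the RNAs (15.35 to 15.77), whereas those of S100a9 ranged from 6.22 to 11.97. Whether the Csf3r probe follows neutrophils in these sorted cells was not tested.

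Summed linear intensities of the whole lists overlapped between genotypes, but a sum adds across probes and mostly follows the brightest. The brightest neutrophil probe, Csf3r, had levels from 15.35 to 15.77, and the brightest leukocyte probe, Lcp1, from 12.08 to 13.00. The overlap of these sums therefore says little about dimmer genes such as S100a9. The leukocyte list ranged from 5725 to 9565 in the channels labeled RANK-/- and from 6870 to 8583 in those labeled RANK+/+, and the macrophage list from 2208 to 3115 and from 1835 to 4292. For the neutrophil list (4 of 7 passed) the ranges were 44584 to 58073 and 46261 to 66506. Among mast cell and basophil genes only 3 of 8 passed, with summed ranges of 834 to 939 and 707 to 1505 and median ratios of -1.11, 0.04 and 0.30, and the defining markers Cma1, Fcer1a and Ms4a2 were above background on no array. Of the 3 that passed, Tpsb2 was above background on all 6 arrays for either genotype. Hdc was so on 6 arrays in the channels labeled RANK-/- and 5 in those labeled RANK+/+, and Mcpt4 on 4 and 3. The macrophage gene Cd163 was above background on no array, whereas Csf1r, Cd68, C1qa, C1qb, C1qc and Lyz2 were on all 6 for either genotype. The 4 of 7 T lymphocyte markers that passed had median ratios of -0.42, 0.09 and 0.01, and the 4 of 5 platelet markers, read because Alox12 is known from platelets, had 0.04, 0.16 and -0.00.

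The pair 1 differences of Alox5ap, Hpgd, Ptgs1, the dimmer Ptges probe and Alox5 thus stood beside a lower leukocyte median in the same channel. In that channel Pla2g4a, Ptgs2 and Lta4h were higher (ratios of 1.58, 0.93 and 0.31), and Ltc4s was slightly lower (-0.18). In pairs 2 and 3 the Alox5ap ratios of -1.68 and -1.23 stood beside leukocyte medians of 0.04 and 0.21. In those pairs Ptprc had levels of 6.08 to 6.45 and Rac2 of 6.11 to 6.46. The lowest signals called above background were 5.90 in the channels labeled RANK-/- and 5.96 in those labeled RANK+/+. Ratios so near background are drawn toward 0, although Coro1a, Cd52, Lcp1 and Vav1 of the list were brighter. The medians near 0 therefore need not mean equal leukocyte content. The part of immune cells in the ratios of these genes, Alox5ap included, was not tested.

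The labeled cell type was present. All 7 luminal epithelial markers and all 5 basal epithelial markers were above background on every array. Median ratios were 0.45, -0.55 and 0.52 for the luminal and 0.00, 0.02 and -0.01 for the basal list. Single markers lay far from these medians. Luminal Krt19 had ratios of -1.22, -3.95 and 0.03. Basal Krt5 had -1.41, -2.13 and 0.33 and Krt14 had -1.81, 0.12 and -0.44, while basal Oxtr had 1.84, 0.74 and 0.08. All 6 endothelial markers were above background on every array as well, with median ratios of 0.01, -0.18 and 0.53, whereas 0 of 5 adipocyte markers passed. All 8 fibroblast markers were also above background on every array. They had median ratios of 0.20, 0.76 and 1.97, with 4 of 8 above 0 in every pair. The fibroblast median and the ratios of Slco2a1, Ptger2 and Gstm2 were highest in the same pair, pair 3, although Pdgfrb and Fbln1 of the fibroblast list were not. The luminal and endothelial medians were highest in pair 3 as well, so this is not particular to fibroblasts. Ptgds, also higher in every pair, was highest in pair 1 (1.03). The part of any cell type in these ratios, stromal cells included, was not tested.

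**Figure D4:**
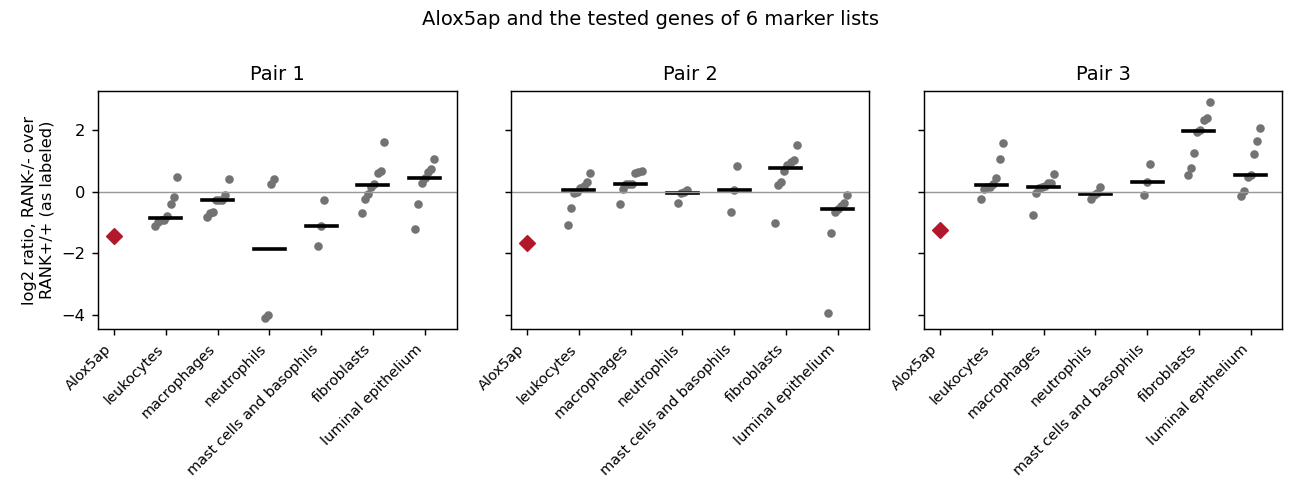
Log2 ratio of RANK-/- over RANK+/+ as labeled (vertical axis) of Alox5ap (red diamond) and of each tested gene of 6 marker lists (gray points, with the median as a bar), in one panel per pair. Alox5ap lies between -1.23 and -1.68 in all panels, while the leukocyte median is -0.86 in pair 1 and above 0 in pairs 2 and 3. Some leukocyte markers, Ptprc among them, were near background in pairs 2 and 3, where ratios are drawn toward 0.

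The genes with the pattern most like that of Alox5ap were found by Euclidean distance over the 3 pair ratios, among 14672 other genes with a symbol. They were Fabp3, a fatty acid binding protein (distance 0.38), Armcx2, an armadillo repeat protein (0.48), Dsp, desmoplakin of the desmosome (0.54), Ly6d, a surface protein of stratified epithelium (0.60), and Zdhhc12, a palmitoyltransferase (0.66). Dsp had ratios of -1.88, -1.40 and -1.35, and Ly6d of -1.26, -1.36 and -1.72. All 5 had ratios below 0 in every pair, which the search itself fixed.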

How the data were processed

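RNA of sorted CD45- cells was measured on 6 two-color SurePrint G3 Mouse arrays, and genotypes, pairs and dyes came from the labels. The authors extracted the arrays with Feature Extraction (10.7.3.1 in the submitters' processing notes). The deposited scanner tables give median and background intensity per spot without normalization, processed intensity with background and dye corrected, and Cy5 over Cy3 as a log10 ratio. Log2 ratios normalized by the authors are deposited for the whole series. Their direction is not stated, and they correlated at 0.94 to 0.95 with the scanner ratios of RANK-/- over RANK+/+. Their centring is not stated (column medians -0.01 to 0.01). Dye swaps are described in the study, but per the labels each pair kept one dye arrangement on both of its arrays. All arrays lay on 1 slide.

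Median signals were corrected with normexp (offset 50), normalized by intensity loess and Aquantile (limma 3.58.1, R 4.3.3; tables were read with the data.table package, version 1.17.8), with control and outlier spots left out. No spot was saturated (0). Spots of a probe and arrays A and B were averaged. A probe passed when the deposited flags put it above background, for one genotype, on arrays A and B alike in at least 2 pairs, as 30231 of 55681 did (54.3%). Per array and genotype, 51.9% to 58.8% were above background. The brightest passing probe stood for a gene. Symbols came from RefSeq (GRCm38.p6) by accession, which named 28026 probes. Probe coordinates, on mm9 in the array grid, are not given. Genes were tested with limma (intercept only, Benjamini-Hochberg, threshold 0.05) on the 3 pair ratios, and with a rank product of 500 draws. The script was tested on simulated data. The number of arrays limits the precision.

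The genes, lists and naming rules were chosen with earlier results of these data known. All 10 genes were named, as were Tnfrsf11a, other pathway genes with one sign and a mean of at least 1 in size or else the largest mean of each role, the defining markers of each cell type and the 5 nearest genes to Alox5ap. Alternatives varied background correction, normalization, signal, filter, probe choice, arrays, pairs and model.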

Additional observations from a re-analysis of the deposited data

How the results depend on the processing

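With only 3 pairs, and with dye and pair 1 not separable, ratios of single genes rest on few values, and the signals of Alox5 and Hpgds were not well above background in most channels. The mean ratio of Alox5ap stayed below 0 under all 16 alternatives, from -1.76 with the processed signals to -1.33 without pair 2, and Ptgs2 stayed above 0 (0.24 to 1.28). Tnfrsf11a stayed above 0 (1.39 to 1.89).

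Limma called 0 genes in most fits and 13 of 22440 with the pair as a random block. With the 6 arrays as separate replicates, which treats technical arrays as independent, it called 298 of 22440. The rank product, a different test, called 22 of 22502. Of the 10 genes, 8 passed the filter. Of these 8, only Alox5ap was among the 298, and none was among the 13, among the 22 or called with no replicate block (0 genes called). Genes of the 10 lower in every pair numbered 2 with median centring, the processed signals or no filter, and 2 without any one pair. Those higher in every pair numbered 0 with median centring, the processed signals, the series table or the mean over probes, and 1 to 3 without one pair. The other pathway genes with one sign numbered 9 to 15 with all pairs and 18 to 29 without one, where fewer pairs must share the sign. The shares of all genes with one sign were not computed under these alternatives, so the counts are a description only. A dye term could not alter the signs within pairs and gave no counts of them. Mean ratios changed sign under 4 alternatives for Ltc4s and Ptges, 3 for Ptgs1, 2 for Lta4h and 1 each for Hpgd, Pla2g4a and Pla2g7; the cause was not tested.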
